A study of Mus musculus with 2 samples.

Results

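Prostaglandins are lipid signals made from arachidonic acid, and 10 genes that make, take up, break down or sense them were followed here through the cells of 2 single-cell libraries from mouse lung: Ptgs1, Ptgs2, Ptges, Ptges2, Ptges3, Ptgis, Hpgd, Pla2g4a, Slco2a1 and Ptger3. They were chosen by name, from their known roles, out of 27998 genes counted. All 10 have a row in the deposited counts. Each library came from lung cells of male mice, taken by flow cytometry from the EpCAM+ gate after exclusion of cells with Sca-1, CD24, CD31, CD34 or CD45 on their surface, a gate that keeps epithelial cells and turns away endothelial and blood cells. The submitters call the product alveolar type 2 (AT2) epithelial cells, the surfactant-making cells of the air sacs. One library is labelled WT and the other IP-/- (IPKO), where IP is the receptor for prostacyclin, encoded by Ptgir. The strain, age, number of animals and any treatment are not given in the labels, nor is the part of Ptgir that was deleted. The series title ties this receptor to alveolar regeneration, so the level of these genes bears on which cells in such a sort carry transcripts for making, removing or sensing its ligand and related prostaglandins.

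The pathway runs in steps. Cytosolic phospholipase A2 (Pla2g4a) frees arachidonic acid from membranes, and the cyclooxygenases (Ptgs1, mostly constitutive, and Ptgs2, inducible) turn it into prostaglandin H2. Terminal synthases then give prostaglandin E2 (Ptges, Ptges2, Ptges3) or prostacyclin (Ptgis). The transporter Slco2a1 takes prostaglandins into cells, where 15-hydroxyprostaglandin dehydrogenase (Hpgd) begins their breakdown, and the lung is known for clearing prostaglandin E2 from blood in this way. Ptger3 encodes EP3, a receptor for prostaglandin E2.

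Each group is 1 library, so differences between the labels have no replicate check and no test was made. All intervals given are 95% intervals for counting error only. The libraries kept 6745 cells labelled WT and 8072 labelled IPKO, with medians of 18057 and 16665 unique molecular identifiers (UMIs, 1 per captured transcript) per cell. The targeted gene goes against the labels: Ptgir had 0 UMIs in 6173 AT2-like cells of the library labelled WT, which by the limit of 3 counts allows a share of up to 0.0486% of cells with a UMI, and 310 UMIs in 7321 AT2-like cells of the library labelled IPKO. The kit reads a tag near the 3′ end of a transcript, which checks nothing if the deleted part lies elsewhere in the gene, so each library is called here only by its label, and no direction is drawn as an effect of losing the receptor.

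Cells were classed without use of the 10 genes or of 32 other prostanoid genes. AT2-like cells made up 91.5% and 90.7% of the kept cells labelled WT and IPKO. Different clusters held most of them in each library: 4903 of the AT2-like cells labelled WT sat in a cluster led by Cyp2b10, Nr1d1 and Chil1, and 5610 of those labelled IPKO in a cluster led by Hspa1a and Hspa1b. Keratin-high cells, which share the genes of the state between AT2 and alveolar type 1 cells, numbered 226 and 109 and were led by Sprr1a, S100a6, Lgals3 and Anxa1. Their Krt8 level was 619 and 811 counts per 1e+06 UMIs of the class (CPM), against 105 and 134 CPM in AT2-like cells, while Cldn4, another marker of that state, stood at 3.80 and 5.51 CPM against 0.110 and 0.0930 CPM in AT2-like cells. Cells that passed the gate against their surface markers were 51 and 57 endothelial-like cells (Cdh5 at 2152 and 2060 CPM), 36 and 183 immune cells (Ptprc at 661 and 748 CPM) and 19 and 25 mesenchymal-like cells. Judged by Sftpc, RNA of AT2 cells made up 2.58% and 3.098% of the AT2 level in endothelial-like cells, 1.5001% and 4.92% in immune cells, and 15.02% and 22.5% in mesenchymal-like cells. The level that such carry-over alone would give stands below beside results it could touch. In all, 79 barcodes occur in both libraries, 16 of them among kept cells.

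AT2-like cells held transcripts for making prostaglandin E2 and taking up prostaglandins, and few or almost none of Pla2g4a, Hpgd, Ptger3 and Ptgis. Ptgs1, Ptgs2, Ptges, Ptges2, Ptges3 and Slco2a1 reached 5 CPM in each library, 6 of the 10 genes, where 30% of all genes did so in the library labelled WT and 30.5% in the library labelled IPKO. Pla2g4a, Hpgd, Ptger3 and Ptgis stayed under that level in both.

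**Figure D1:**
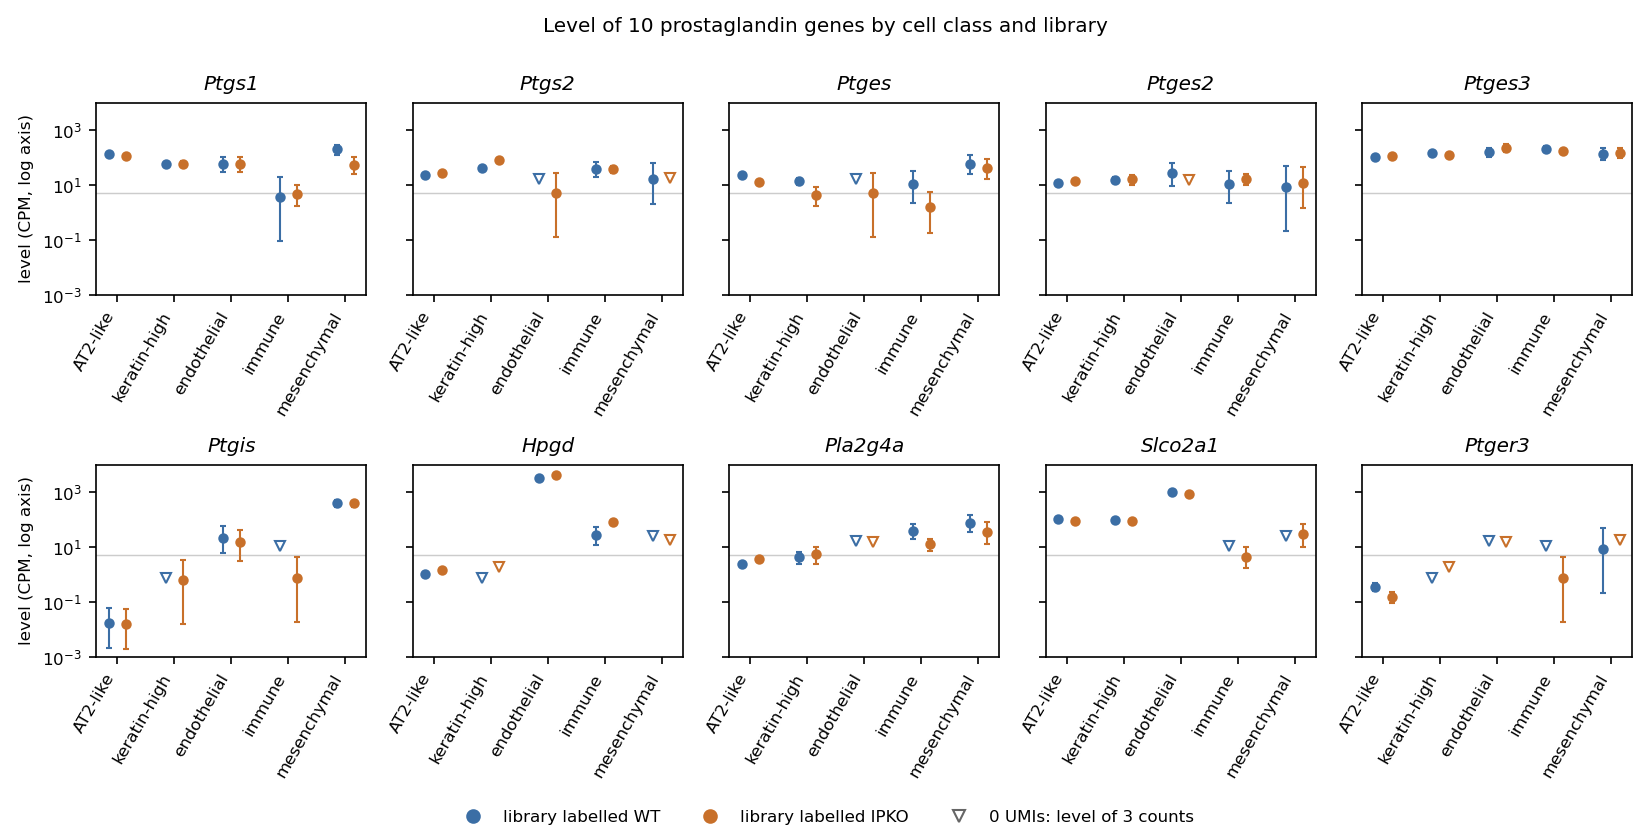
Level of each of the 10 genes (CPM, log axis) in 5 cell classes, in the library labelled WT (blue) and the library labelled IPKO (orange). Points are CPM of the summed UMIs of a class, bars are exact Poisson 95% intervals, open triangles mark the level of 3 counts where no UMI was found, and the grey line marks 5 CPM. Hpgd and Slco2a1 are highest in endothelial cells, Ptgis is highest in mesenchymal cells, and Ptgs1 is lowest in immune cells.

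Ptgs1, the constitutive cyclooxygenase (chr2:36230426-36252272 of GRCm38, plus strand), was detected in most AT2-like cells. Its level was 136 CPM (134 to 138) in the library labelled WT and 112 CPM (110 to 114) in the library labelled IPKO, with a UMI in 81.1% and 74.9% of cells. Keratin-high cells lay lower in both libraries, at 58.6 (51.3 to 66.6) and 60.6 (49.2 to 73.7) CPM, and the intervals do not overlap those of AT2-like cells. Endothelial-like cells had 11 and 12 UMIs, 60.8 (30.4 to 109) and 59.998 (31.0 to 105) CPM, where AT2 carry-over alone would give 3.50 and 3.47 CPM. Next to them in this order, keratin-high cells do not differ from them beyond counting error. Immune cells stood lowest at 3.56 and 4.54 CPM, from 1 and 6 UMIs, at the 2.04 and 5.51 CPM that carry-over would give. Mesenchymal-like cells had 199 (126 to 298) and 55.2 (25.2 to 105) CPM, where carry-over would give 20.4 and 25.2 CPM, and 13 of the 23 UMIs labelled WT came from 1 cell.

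Ptgs2, the inducible cyclooxygenase (chr1:150100031-150108227, plus strand), had a lower level in AT2-like cells and a different order over classes. AT2-like cells held 23.5 CPM (22.7 to 24.4) in the library labelled WT and 28.6 CPM (27.7 to 29.5) in the library labelled IPKO. Keratin-high cells were above them in both, at 40.3 (34.3 to 47.1) and 80.1 (67.0 to 95.1) CPM, although 32 of the 131 UMIs labelled IPKO lay in 1 cell. With the 8% of cells of highest doublet score removed, the rest were clustered anew, which gave 104 and 48 keratin-high cells. This newly drawn class had its median AT2 marker at 68.4% of its overall level, against 85.1% before. In it the direction turned in the library labelled IPKO, with Ptgs2 at 25.006 CPM against 29.6 CPM in AT2-like cells. In the library labelled WT the values were 29.58 against 24.4 CPM. Whether the removal or the new clustering moved these values was not tested. Immune cells had 39.1 (19.5 to 70.0) and 37.1 (27.4 to 49.0) CPM. Their log2 ratio to AT2-like cells, 0.73 (-0.27 to 1.57) and 0.38 (-0.06 to 0.78), included 0 in each library. Endothelial-like cells had 0 UMIs labelled WT, where 3 counts are 16.6 CPM, and 1 UMI labelled IPKO, with an interval that reaches 27.9 CPM. The highest level in any named class belonged to neutrophil-like cells, at 512 (256 to 917) and 513 (325 to 770) CPM, from 11 UMIs in 4 of 6 cells and 23 UMIs in 6 of 11 cells.

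The upstream sequences of both cyclooxygenase genes, of Ptges and of Slco2a1 are shown because these 4 genes moved apart or together over the AT2 states described below. Each is the 250 bases before RefSeq's start of the gene in GRCm38.p6, 5′ to 3′ on the gene's own strand, and capitals mark matches to 7 short motifs searched on both strands (the TATA box TATAAA; the cyclic AMP response element as its core TGACG and as the full site TGACGTCA, which contains that core; the AP-1 site TGANTCA; the E box CACGTG; the GC box GGGCGG; and the CCAAT box).
Ptgs1, chr2:36230176-36230425, plus strand: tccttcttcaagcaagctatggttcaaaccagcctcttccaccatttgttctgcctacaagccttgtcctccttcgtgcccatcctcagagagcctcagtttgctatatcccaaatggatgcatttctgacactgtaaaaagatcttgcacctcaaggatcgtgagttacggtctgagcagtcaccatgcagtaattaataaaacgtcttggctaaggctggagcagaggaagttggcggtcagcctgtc
Ptgs2, chr1:150099781-150100030, plus strand: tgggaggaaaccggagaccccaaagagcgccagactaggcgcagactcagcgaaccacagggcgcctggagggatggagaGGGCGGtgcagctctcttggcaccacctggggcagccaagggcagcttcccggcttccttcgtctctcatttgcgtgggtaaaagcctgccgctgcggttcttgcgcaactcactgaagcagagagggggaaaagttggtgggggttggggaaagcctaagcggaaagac
Ptges, chr2:30903298-30903547, minus strand: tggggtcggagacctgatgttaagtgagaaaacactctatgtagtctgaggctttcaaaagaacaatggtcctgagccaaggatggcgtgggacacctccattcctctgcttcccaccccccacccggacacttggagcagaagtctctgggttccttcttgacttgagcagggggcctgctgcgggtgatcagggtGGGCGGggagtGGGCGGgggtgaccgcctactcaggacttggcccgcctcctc
Slco2a1, chr9:103008237-103008486, plus strand: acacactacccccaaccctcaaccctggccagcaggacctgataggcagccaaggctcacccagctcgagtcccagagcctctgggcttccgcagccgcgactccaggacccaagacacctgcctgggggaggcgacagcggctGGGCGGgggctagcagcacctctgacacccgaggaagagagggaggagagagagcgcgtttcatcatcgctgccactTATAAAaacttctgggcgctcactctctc
The Ptgs1 window is the poorest of these 4 in G and C, at 48%, and holds none of the 7 motifs. The Ptgs2 window holds 61.6% G and C and 1 GC box (GGGCGG) starting at base -170 from the start of the gene. Ptges has 59.6% and 2 GC boxes, at -53 and -42, and Slco2a1 has 63.2%, a TATA box (TATAAA) at -29 and a GC box at -106. The Ptges and Slco2a1 windows lie inside the gene spans given here, which come from GENCODE and start farther upstream. Among 32851 mouse promoter windows of the same length, 32.7% hold a GC box and 12.4% a TATA box, so a GC box is common. Only these 250 bases were searched, so a motif not found may lie past the start used or elsewhere in the gene. Of the 10 genes, 9 had a window in the table, and Ptgis did not.

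In AT2-like cells the UMIs of Ptgs2 were gathered in fewer cells than those of Ptges. Both genes had nearly the same total in the library labelled WT (2771 and 2749 UMIs). Ptgs2 was seen in 18.5% of those cells with up to 33 UMIs in a cell, and Ptges in 27.3% with up to 8. The 1% of cells richest in Ptgs2 held 28.7% of its UMIs in the library labelled WT and 26.1% in the library labelled IPKO. For Ptges that share was 10.9% and 17.7%, for Slco2a1 4.49% and 5.09%, and for Ptgs1 5.51% and 5.41%. In each library the cells with 3 or more Ptgs2 UMIs were 275 (4.45%) and 401 (5.48%) of the AT2-like cells.

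**Figure D2:**
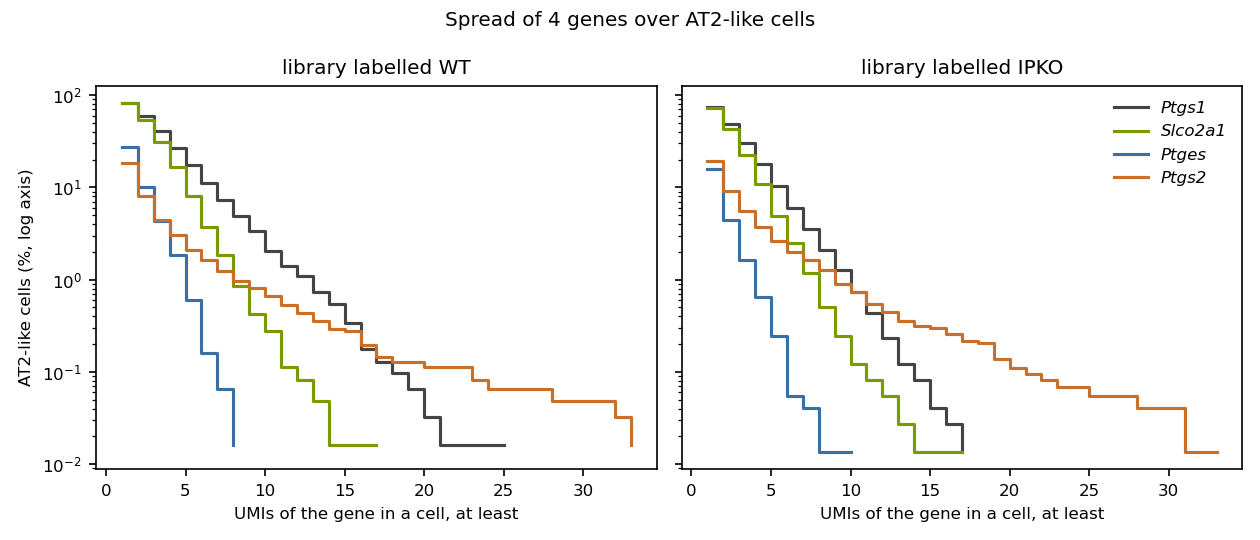
Share of AT2-like cells (percent, log axis) that hold at least the number of UMIs on the horizontal axis, for Ptgs1, Slco2a1, Ptges and Ptgs2, in the library labelled WT (left) and the library labelled IPKO (right). The Ptgs2 line starts low, at 18.5% and 19.4% of cells with 1 UMI or more, and reaches farthest to the right, to 33 UMIs in each library.

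Among the terminal synthases, the 3 for prostaglandin E2 were found in AT2-like cells and the one for prostacyclin had 2 UMIs in each library. Ptges encodes the inducible microsomal synthase (chr2:30889471-30929863, minus strand). It stood at 23.4 CPM (22.5 to 24.3) in AT2-like cells labelled WT and 12.9 CPM (12.3 to 13.5) in those labelled IPKO. Keratin-high cells were lower, at 13.7 (10.3 to 17.9) and 4.28 (1.72 to 8.82) CPM, the latter from 7 UMIs. Endothelial-like cells had 0 and 1 Ptges UMIs and immune cells 3 and 2, while 19 and 25 mesenchymal-like cells had 7 UMIs each, 60.5 (24.3 to 125) and 42.9 (17.3 to 88.4) CPM. Of these 7 UMIs, 4 lay in 1 mesenchymal-like cell labelled WT, and no such cell labelled IPKO held more than 3. Ptges2 (chr2:32395896-32405772, plus strand), a membrane-bound synthase, was at 11.6 and 13.5 CPM in AT2-like and 14.96 and 15.9 CPM in keratin-high cells. In ciliated-like cells it was at 80.1 and 21.0 CPM, from 6 UMIs in each library. The log2 ratio of ciliated-like over AT2-like cells was 2.79 (1.34 to 3.91) labelled WT. Labelled IPKO it was 0.64 (-0.81 to 1.76), which includes 0. Ptges3 (chr10:128058954-128077272, plus strand), also known as the HSP90 co-chaperone p23, had UMIs in every named class of both libraries, with 103 and 111 CPM in AT2-like and 213 and 172 CPM in immune cells. It was highest in ciliated-like cells, at 962 (752 to 1211) and 572 (487 to 666) CPM from 3 and 14 cells.

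Ptgis, prostacyclin synthase (chr2:167191805-167240604, minus strand), marked cells other than epithelium. It had 2 UMIs among 6173 AT2-like cells labelled WT and 2 among 7321 labelled IPKO. Mesenchymal-like cells held 46 and 64 UMIs, 398 (291 to 530) and 392 (302 to 501) CPM, with a UMI in 12 of 19 and 14 of 25 cells. The small unnamed cluster led by Vwf gave 235 (125 to 402) and 119 (38.6 to 278) CPM in 14 and 8 cells, and the endothelial-like class had 4 and 3 UMIs. The same Vwf-led cells had the highest Ptgs1 level of any cluster or class named here, 289 (165 to 470) and 238 (114 to 438) CPM. The Ptgis gene overlaps a counted gene model on the other strand, Gm14291, and how reads in such an overlap were assigned is not stated in those sources.

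Between the libraries, Ptges differed most among the 6 genes that averaged 5 CPM or more in AT2-like cells. It was 1.81-fold lower in the library labelled IPKO, with a log2 ratio of -0.86 (-0.95 to -0.77). Ptgs1 had a log2 ratio of -0.28 (-0.31 to -0.25) and Slco2a1 of -0.21 (-0.24 to -0.17), while Ptgs2 lay at 0.28 (0.21 to 0.35), Ptges2 at 0.22 (0.12 to 0.32) and Ptges3 at 0.10 (0.07 to 0.14). Ptges alone was past 1.5-fold, 1 of 6 lower and 0 of 6 higher, where 1.55% of 8489 genes were past it on the lower side and 1.87% on the higher. The median log2 ratio of the 6 genes was -0.05, against 0.06 for all genes tested. Below 5 CPM, Pla2g4a went from 2.37 to 3.85 CPM and Hpgd from 1.02 to 1.43 CPM, both higher in the library labelled IPKO (carry-over from endothelial cells alone would give 0.282 and 0.651 CPM of Hpgd), and Ptger3 had 41 UMIs labelled WT and 20 labelled IPKO.

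**Figure D3:**
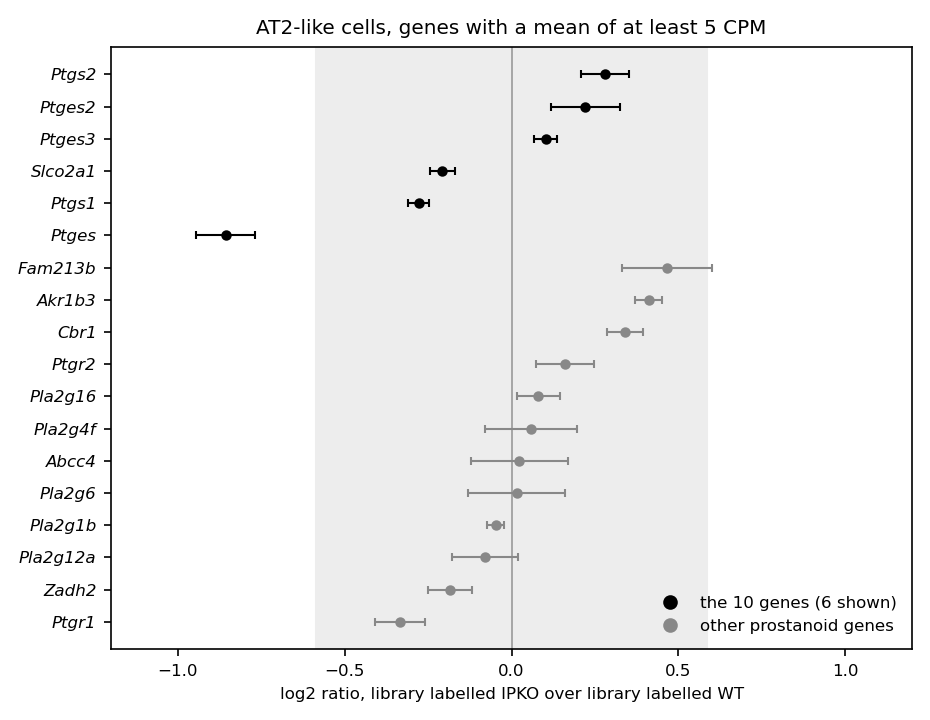
Log2 ratio of the level in AT2-like cells, library labelled IPKO over library labelled WT, for 6 of the 10 genes (black) and 12 other prostanoid genes (grey) that average 5 CPM or more. Bars are exact 95% intervals for counting error and the grey band spans 1.5-fold either way; Ptges, at -0.86, is the one gene outside it.

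The lower Ptges level was present within each AT2 cluster that both libraries share, though by a varying amount. It was 23.6 CPM labelled WT and 18.2 CPM labelled IPKO in the cluster led by Cyp2b10, 22.8 and 10.9 CPM in the one led by Lyz1 and Spink5, and 15.01 (8.21 to 25.2) and 13.1 (12.4 to 13.8) CPM in the one led by Hspa1a, where the library labelled WT gave only 60 cells and the intervals overlap. The club cell gene Scgb1a1 also differed with the label: after each cell was thinned to 3000 UMIs, 34.7% of AT2-like cells labelled WT and 60.5% of those labelled IPKO had none of it. Within cells with 0, 1 to 4, and 5 or more Scgb1a1 UMIs, a division chosen after seeing the data, the log2 ratio of Ptges was -0.60 (-0.74 to -0.45), -0.83 (-0.97 to -0.69) and -0.76 (-1.10 to -0.44). In the same strata Ptgs2 gave -0.06, 0.34 and 0.08, with intervals that include 0 in the first and the last. The Ptges ratio was thus negative in all 3 strata, and the Ptgs2 ratio had no constant sign.

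Keratin-high cells carried more Ptgs2 and less Ptgs1 and Ptges than AT2-like cells of their own library. The log2 ratio of keratin-high over AT2-like cells for Ptgs2 was 0.78 (WT) and 1.49 (IPKO), for Ptgs1 -1.21 and -0.89, and for Ptges -0.77 and -1.59. With the highest doublet scores removed and the rest clustered anew, as above, those of Ptgs2 were 0.28 and -0.24. Those of Ptgs1 were -1.63 and -0.84 and those of Ptges -0.12 and -0.42. The Ptgs1 and Ptges ratios stayed negative under 12 of 12 other settings in each library. Slco2a1 (-0.09 and -0.02) was nearly level, and its sign held under 9 and 10 of 12 other settings. No member was past 2-fold in both libraries, 0 of 6 in either direction, where 2.76% of 8328 genes were past it on the higher side and 1.2% on the lower. This count depends on how the class is drawn: with each library clustered alone Ptgs2 was past 2-fold higher and Ptges past 2-fold lower, and with TMM scaling Ptgs1 and Ptges were past 2-fold lower. At most 10% mitochondrial UMIs or a resolution of 0.3 gave no keratin-high cluster.

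Clustered alone, each library gave a larger keratin-high cluster, of 2053 cells labelled WT and 1796 labelled IPKO, and the same order. These clusters stood closer to other AT2 cells: their median AT2 marker was at 100.5% and 96.9% of its overall level, against 85.1% in the 226 and 109 cells above, and their 10 leading genes, Areg, Anxa1 and Lgals3 among them, held no keratin. Ptgs2 stood at 40.2 CPM (38.2 to 42.3) in that cluster of the library labelled WT, against 9.46, 17.1 and 28.8 CPM in its 3 AT2-like clusters, and at 49.5 CPM (47.0 to 52.1) in that of the library labelled IPKO, against 25.2, 30.9 and 11.5 CPM. Ptges ran the other way. Among these 4 clusters it was lowest in the keratin-high cluster of each library, at 12.3 CPM (11.2 to 13.5) and 6.501 CPM (5.62 to 7.49), and lay between 22.3 and 32.1 CPM in the AT2-like clusters labelled WT and between 10.8 and 19.3 CPM in those labelled IPKO. Ptgs1 was likewise lowest there, at 103 and 87.0 CPM. The low-RNA clusters, left out of this order, had 9.48 and 9.54 CPM of Ptges, 98.6 and 93.9 CPM of Ptgs1 and 49.3 and 36.1 CPM of Ptgs2. The cluster lowest in Ptgs2 in the library labelled WT was led by Lrg1 and Mfsd2a, and the lowest in the library labelled IPKO by Scgb1a1 and Cyp2f2.

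**Figure D4:**
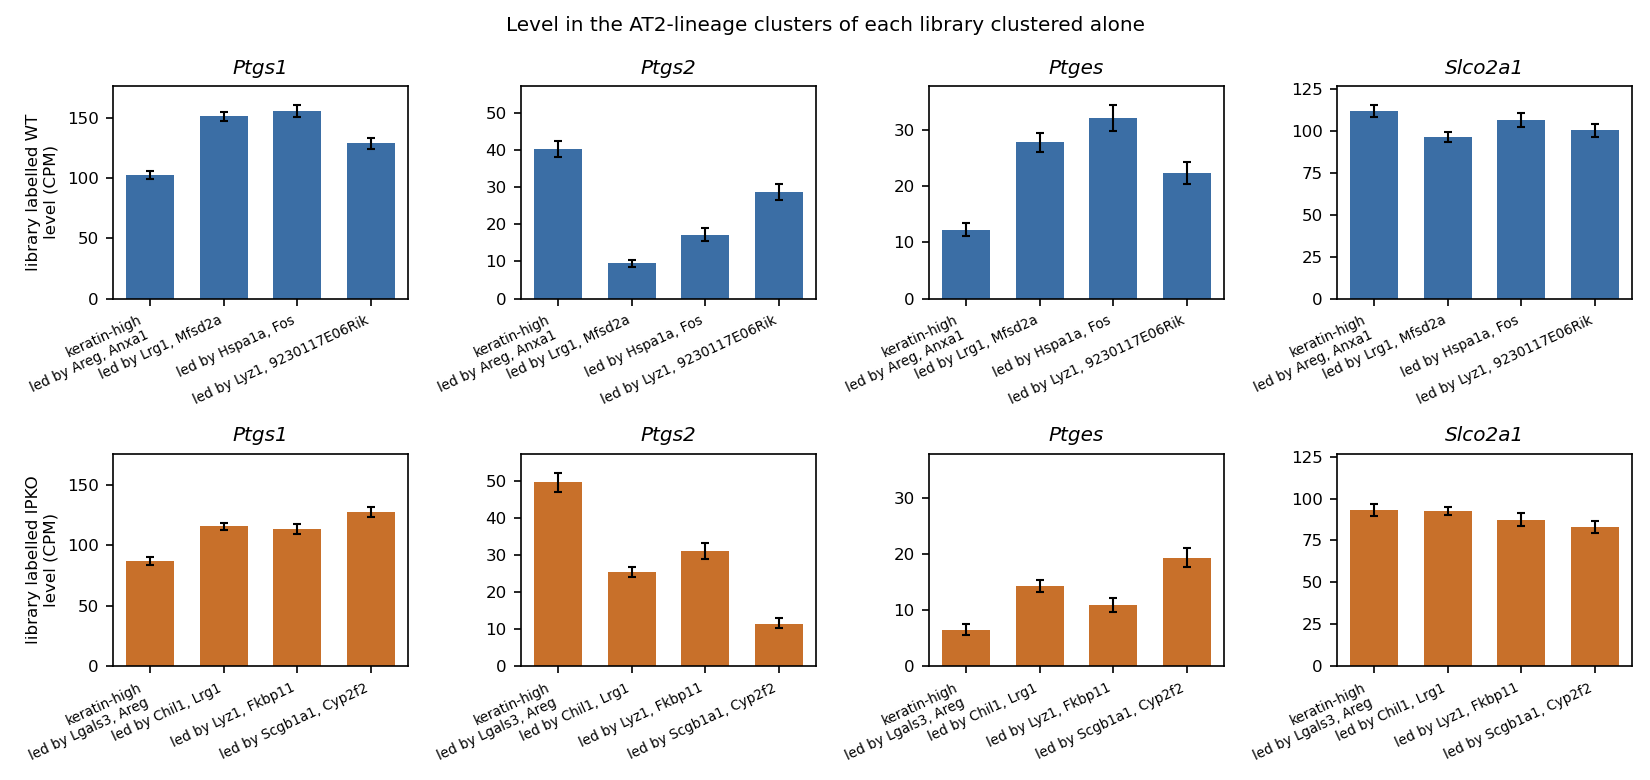
Level (CPM, bars from 0, with exact Poisson 95% intervals) of Ptgs1, Ptgs2, Ptges and Slco2a1 in the keratin-high cluster and the 3 AT2-like clusters of the library labelled WT (top) and the library labelled IPKO (bottom), each clustered alone. Among the 4 clusters drawn per library, Ptgs2 is highest in the keratin-high one, 40.2 and 49.5 CPM, while Ptges and Ptgs1 are lowest there.

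Pla2g4a, which starts the pathway (chr1:149829618-149961290, minus strand), was sparse in AT2-like and keratin-high cells and higher in several classes of few cells. AT2-like cells held 2.37 (2.10 to 2.67) and 3.85 (3.51 to 4.20) CPM, with a UMI in 3.94% and 5.87% of cells, and keratin-high cells 4.31 and 5.51 CPM, with intervals that overlap. No UMI was found in 51 and 57 endothelial-like cells. Macrophage and monocyte-like cells had 64.0 (32.0 to 115) and 26.1 (14.3 to 43.8) CPM, from 11 UMIs in 5 of 14 cells and 14 UMIs in 11 of 51 cells. Ciliated-like cells had 40.1 (8.26 to 117) and 87.7 (56.7 to 129) CPM, from 3 and 25 UMIs, and the Vwf-led cells 72.4 (19.7 to 185) and 143 (52.4 to 311) CPM, from 4 and 6 UMIs. Mesenchymal-like cells had 77.8 and 36.8 CPM, with 7 of 9 UMIs labelled WT and 4 of 6 labelled IPKO in 1 cell. In the library labelled WT the intervals of these 4 classes overlap, and in the library labelled IPKO macrophage and monocyte-like cells lay below ciliated-like and Vwf-led cells. The gene lies 139 kb from Ptgs2 on chromosome 1, with 0 protein-coding genes between them.

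Genes of uptake and breakdown were high in endothelial-like cells and in the Vwf-led cells. The Vwf-led cells had Hpgd at 2768 and 2332 CPM and Slco2a1 at 488 and 833 CPM. Of 8 genes averaging 5 CPM or more over the groups compared, 3 (Hpgd, Slco2a1 and Ptgis) were more than 2-fold higher in endothelial-like than in AT2-like cells of both libraries. None were lower (0 genes). Of 8880 genes 33.3% were called higher and 6.72% lower, so the count itself is near the background. Ptgs2 and Ptges could not be called lower: with 0 UMIs labelled WT, the limit of 3 counts gives 1.42-fold and 1.41-fold at most. Ptgs1 was 2.23-fold lower labelled WT and 1.87-fold lower labelled IPKO. Hpgd (chr8:56294585-56321043, plus strand) reached 3352 CPM (3091 to 3630) in the library labelled WT and 4135 CPM (3858 to 4427) in the library labelled IPKO, from 606 and 827 UMIs, against 1.02 and 1.43 CPM in AT2-like cells. That is a log2 ratio of 11.68 and 11.49. A UMI was seen in 49 of 51 and 53 of 57 endothelial-like cells at median depths of 2998 and 2768 UMIs, and in 1.67% and 1.98% of AT2-like cells at 18370 and 17080 UMIs. Carry-over from endothelial cells alone would put 0.282 and 0.651 CPM of Hpgd into AT2-like cells. In keratin-high cells 0 UMIs were found in 226 and 109 cells, where 3 counts are 0.761 and 1.84 CPM.

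Slco2a1 (chr9:102988712-103096002, plus strand) was found in AT2-like, keratin-high and endothelial-like cells and, as above, in the Vwf-led cells. Its level was 104 CPM (102 to 106) labelled WT and 90.1 CPM (88.4 to 91.7) labelled IPKO in AT2-like cells, 97.6 and 88.7 CPM in keratin-high cells, and 1018 (876 to 1176) and 870 (746 to 1009) CPM in endothelial-like cells, a 9.79-fold and 9.66-fold difference from AT2-like cells. With TMM scaling the endothelial difference is smaller, as the factors are 0.688 and 0.723 in AT2-like and 1.48 and 1.45 in endothelial-like cells. At these levels AT2-like and keratin-high cells do not differ beyond counting error in either library. Under 12 other settings the log2 ratio of keratin-high over AT2-like cells ranged from -0.52 to 0.16 labelled WT and from -0.33 to 0.11 labelled IPKO. TMM scaling gave -0.39 and -0.33. Immune cells had 0 and 6 UMIs, the latter 4.54 CPM where AT2 carry-over would give 4.44 CPM. After thinning to 3000 UMIs, 24 of 25 endothelial-like cells in each library had Hpgd, and 23 and 22 of 25 had Hpgd and Slco2a1 together. The same pair was found in 6 of 6157 and 6 of 7305 thinned AT2-like cells. The endothelial-like cells fell into a cluster of 8 and 8 cells led by Car4 among others and a larger one led by Ramp2 and Tmem100. Hpgd was lower in the first, at 2120 and 2519 CPM, than in the second, at 3747 and 4445 CPM.

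In immune cells the breakdown enzyme and the phospholipase were above AT2-like cells, and Ptgs1, Ptges and Slco2a1 were below them. For Ptges in the library labelled WT, the 3 UMIs lay in 1 cell and the log2 ratio of -1.13 (-3.41 to 0.42) included 0. Of 8 genes tested, 2 were more than 2-fold higher in both libraries (Hpgd and Pla2g4a) and 3 more than 2-fold lower. Of 8920 genes 24.5% were higher and 12.2% lower, so the count on the higher side is near the background. Hpgd was 28.5 CPM (12.3 to 56.1) labelled WT, where 7 of 8 UMIs came from 1 cell, and 80.2 CPM (65.7 to 97.1) labelled IPKO, where endothelial carry-over would give 9.08 and 13.4 CPM. The class is made up unlike in the libraries, with 14 macrophage and monocyte-like cells of 36 labelled WT and 51 of 183 labelled IPKO. Among those of the library labelled IPKO, Hpgd was 283 CPM in the 12 cells led by C1qa and C1qb, 283 CPM in the 24 monocyte-like cells led by Plac8, and 9.03 CPM from 2 UMIs in the 15 cells led by Chil3 and Ear2, which are genes of alveolar macrophages. Neutrophil-like cells held 11 of 11 Ptgs2 UMIs of the immune class labelled WT and 23 of 49 of that labelled IPKO. In the T and NK cell-like cells labelled IPKO 17 of its 18 UMIs lay in 1 cell.

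Sensing genes were scarce in AT2-like cells. Ptger3 (chr3:157566892-157645888, plus strand) had 0.348 CPM (0.250 to 0.473) in the library labelled WT and 0.155 CPM (0.0947 to 0.239) in the library labelled IPKO, with a UMI in 35 of 6173 and 16 of 7321 cells. Keratin-high and endothelial-like cells had 0 Ptger3 UMIs in each library, and immune cells 0 and 1. Other receptors for prostanoids were at most 0.110 CPM in AT2-like cells of either library, leaving out Ptgir. In other classes Tbxa2r, the thromboxane receptor, was found in endothelial-like cells with 10 and 13 UMIs, 55.3 and 64.998 CPM. Ptger4, which encodes the EP4 receptor for prostaglandin E2, was at 24.9 and 29.5 CPM in immune cells from 7 and 39 UMIs.

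Steps of the pathway were rarely caught in the same AT2-like cell at a fixed depth. After thinning to 3000 UMIs a cyclooxygenase transcript (Ptgs1 or Ptgs2) was seen in 34.5% of AT2-like cells labelled WT and 31.5% of those labelled IPKO. One of them together with Ptges was seen in 2.71% (2.32% to 3.15%) and 1.26% (1.02% to 1.54%), together with Pla2g4a in 0.325% and 0.370%, and together with Ptgis in 0 of 6157 and 0 of 7305 cells. Ptgs1 was seen with Slco2a1 in 8.09% and 6.49%. These shares count cells with a UMI at that depth, not cells that express the genes.

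Of 32 other genes of the pathway, 12 averaged 5 CPM or more in AT2-like cells, and 0 were past 1.5-fold in either direction between the libraries, against the 1.87% and 1.55% of all genes above. Their median log2 ratio was 0.04. The secreted phospholipase Pla2g1b was at 199 and 193 CPM, Akr1b3, an aldo-keto reductase, at 74.3 and 98.8 CPM, and the carbonyl reductase Cbr1, which acts on prostaglandin E2, at 39.7 and 50.2 CPM. Ptgr1, which reduces the product of Hpgd further, was at 27.0 and 21.4 CPM, and its relatives Ptgr2 and Zadh2 at 17.0 and 19.0 CPM and at 32.8 and 28.8 CPM. The phospholipase genes Pla2g16, Pla2g12a, Pla2g4f and Pla2g6 stood at 30.7, 14.2, 6.91 and 6.29 CPM in the library labelled WT and 32.5, 13.4, 7.19 and 6.36 CPM in the library labelled IPKO. Fam213b, a prostaglandin F synthase gene, was at 6.36 and 8.78 CPM, and Abcc4, a transporter that exports prostaglandins, at 6.27 and 6.37 CPM. Tbxas1, thromboxane synthase, was found mainly in immune cells, at 60.5 and 26.5 CPM against 0.0765 and 0.140 CPM in AT2-like cells. The lysosomal phospholipase Pla2g15 was also higher in immune cells, at 78.2 and 40.9 CPM against 1.88 and 2.16 CPM. Cbr3, a relative of Cbr1, was at 18.8 and 22.0 CPM in keratin-high cells and 4.67 and 4.47 CPM in AT2-like cells.

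Over 12 points, the 6 named classes with at least 10 cells in each of the 2 libraries, each member with 20 CPM or more in a class was set against all other genes by log2(CPM + 1). Hpgd ran most like BC028528, Cd93 and Calcrl (Pearson's r of 0.991, 0.982 and 0.981), Ptgis like Bgn, Tnxb and Gpx3 (0.997, 0.990 and 0.988), Ptgs1 like Myo1d, Pard3 and Yap1 (0.989, 0.987 and 0.982), Slco2a1 like Clic5, Slc9a3r2 and Fam135a (0.970, 0.966 and 0.964) and Ptges like C3, Ift81 and Acad11 (0.936, 0.931 and 0.926). Ptgs2 ran most like Polr2e, Mmaa and Cd79b (0.944, 0.931 and 0.909), Ptges2 like Tmem55a, Mettl8 and Phkg2 (0.966, 0.957 and 0.897), Ptges3 like Psmd4, Glrx3 and Arpp19 (0.936, 0.928 and 0.927) and Pla2g4a like Pbxip1, Arhgap24 and Spsb1 (0.9501, 0.935 and 0.927). These are descriptions over points that share libraries and depth, chosen as the highest among 9718 genes. Neutrophil-like cells, the named class highest in Ptgs2, had 6 cells labelled WT and were not among the points. Ptgs2 had 0 UMIs in endothelial-like cells labelled WT and in mesenchymal-like cells labelled IPKO, which were.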

How the data were processed

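Single-cell RNA was measured in 2 libraries, 1 labelled WT and 1 labelled IP-/- (IPKO). The authors deposited unnormalized UMI counts for every gene in every called barcode; Cell Ranger 4.0.0 and GRCm38 (mm10) are named per the submitters' processing notes, with no annotation release. Gene spans come from GENCODE vM21, which holds 98.7% of the gene IDs, and upstream sequences from RefSeq for GRCm38.p6.

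Barcodes with under 500 genes or over 20% mitochondrial UMIs were removed. The kept cells held 124228102 and 135001580 UMIs. Scrublet, run through scanpy 1.11.5, called 1 and 1 doublets, so it did not work and none were removed. Both libraries were clustered together without integration (2000 variable genes without the prostanoid genes, 30 principal components, 15 neighbours, Leiden with igraph 0.11.9 at resolution 0.5; other cells again at 1.0). Clusters were named where at least 3 of 10 leading genes were listed markers of 1 type, called low-RNA where 5 of 20 were mitochondrial, and AT2-like where the median AT2 marker was at least 50% of its overall level. A cluster of another type at that AT2 level was left unnamed, a rule chosen after seeing the data.

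UMIs were summed per class and library and divided by the class total (CPM). A class with 0 UMIs was set at 3 counts for fold calls. Levels have exact Poisson, ratios exact conditional binomial and shares exact Clopper-Pearson intervals. The ratio and its interval were tested on simulated data. Named were all 10 genes, other pathway genes at 5 CPM or more in a class of both libraries, Ptgir, and the 3 genes most correlated with each member that reaches 20 CPM; receptors and cluster genes beyond this were chosen after their values were seen. The 10 genes and the lists were chosen with earlier results of these data known. Alternatives numbered 16, and 4 more were added after seeing the data.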

Additional observations from a re-analysis of the deposited data

How the results depend on the processing

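The log2 ratios between the libraries kept their sign for Ptgs1, Ptgs2, Ptges, Ptges2, Ptges3 and Slco2a1 under the 14 other settings that touch AT2-like cells, with Ptges between -0.93 and -0.84; Ptgs2 rose to 0.45 with the prostanoid genes among the variable genes and to 0.44 with each library clustered alone. TMM (edgeR 4.0.16) moved the median of all genes from 0.06 to -0.01. Past 2-fold lower in keratin-high cells was 1 gene with at least 1000 genes per cell or median-of-ratios size factors (Ptgs1), 1 with the prostanoid genes kept or each library alone (Ptges) and 2 with TMM; past 2-fold higher was 1 with the prostanoid genes kept, each library alone or keratin-high cells set by keratin UMIs (Ptgs2). In endothelial-like cells 3 genes were lower with TMM and with median-of-ratios size factors (Ptgs1, Ptgs2 and Ptges), 2 with totals without Sftpc, mitochondrial and ribosomal genes, and 1 with a mixed AT2, endothelial and lymphocyte cluster added. Between libraries 1 gene was higher at a mean of at least 1 CPM (Pla2g4a) and 0 lower at 20 CPM, and in immune cells 0 were higher at 20 CPM, both because fewer genes are tested there. The causes of the other moves were not tested. Of 1320 levels 171 moved beyond their interval. Of 144 log2 ratios of keratin-high over AT2-like cells 43 were called moved and 1 reversed. The reversed one was Ptgs2 in the library labelled IPKO, at -0.24 with the 8% highest doublet scores removed and the rest clustered anew. Signs also changed under some settings for Ptges2, Ptges3 and Slco2a1. In the library labelled IPKO these 3 kept their sign under 10, 9 and 10 of 12 settings. In the library labelled WT they kept it under 11, 12 and 9. No keratin-high cluster formed at 10% mitochondrial UMIs or at resolution 0.3, so those counts were not run. No paired analysis was possible because each group has 1 sample. Depth limits the classes of few cells: in the library labelled WT 3 counts are 16.6 CPM in endothelial-like, 10.7 CPM in immune and 142 CPM in B cell-like cells.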

Other observations

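AT2-like cells with 3 or more Ptgs2 UMIs were set beside those with none, a division made on Ptgs2 itself after seeing the data and described here with no test. Of 4181 other genes compared, 1 was at least 2-fold higher in both libraries, on a log2(CPM + 5) scale: Areg, the EGF receptor ligand amphiregulin, at 51.1 against 14.4 CPM in the library labelled WT and 137 against 31.9 CPM in the library labelled IPKO. Next came 2610028H24Rik, Anxa1, Slc1a3, Lgals3, Atf3, Krt8 and Krt19, with Krt8 at 159 against 97.5 CPM and 209 against 123 CPM. None of the 4181 was at least 2-fold lower in both libraries (0 genes). The lowest were Itih4, Pmvk and Lrg1.

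In the same division Ptges was lower in Ptgs2-rich cells, at 14.3 against 24.2 CPM labelled WT and 6.57 against 13.6 CPM labelled IPKO. Pla2g4a, the neighbour of Ptgs2 on chromosome 1, was higher, at 5.40 against 1.98 CPM and 7.71 against 3.28 CPM. Slco2a1 hardly differed, at 105 against 103 CPM and 93.1 against 89.5 CPM. Ptgs2-rich cells were somewhat deeper, with medians of 20043 against 18225 UMIs labelled WT and 18404 against 16911.5 UMIs labelled IPKO; the part of depth in these values was not tested.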
